A study of Homo sapiens with 8 samples.

Results

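The regions described here were 4713 H3K4me3 islands of PC9 cells that lay away from the annotated starts of protein-coding genes. PC9 cells are an established line from a human lung adenocarcinoma, a tumour of epithelial cells. An island is a stretch of the genome that the SICER algorithm found enriched for ChIP-seq tags, together with a score that sums the improbability of the tag counts over its windows of 200 bp. The islands were taken from the list of H3K4me3 DMSO replicate 1 when they were shorter than 8 kb, overlapped an island of DMSO replicate 2, and lay more than 10 kb from the start of every protein-coding gene of the GENCODE annotation on GRCh37. Of the 23875 islands in that list, 16474 overlapped an island of replicate 2, 15457 of these were shorter than 8 kb, and 4713 of these were distal. The distal islands therefore made up 19.7% of the list and 30.5% of the shorter reproducible islands, and the remaining 10744 shorter reproducible islands, within 10 kb of a gene start, served for comparison. The islands were chosen by their presence in both DMSO libraries, their length and their distance from gene starts, so these values are given as a description only.

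The series held 8 libraries from PC9 cells, 2 for each combination of antibody (H3K4me3 or H3K27me3) and treatment. Cells received DMSO, the vehicle, or 1 μM GSK126, a small molecule inhibitor of the H3K27 methyltransferase EZH2, for 5 days, and D. melanogaster chromatin was added to every reaction as a spike-in. The labels do not say whether replicates came from separate cultures, while the paper calls its PC9 replicates biological. The titles of the replicate 2 libraries alone carry the suffix Dmspike. In standard lists, both libraries of a replicate had been brought to the same number of human tags, whereas in spike-in lists the GSK126 library had been scaled by its D. melanogaster tags. The H3K4me3 DMSO libraries had a standard list only, which was used for both comparisons. The tag density read from the scores was 1.77 tags per window in both standard H3K4me3 lists of replicate 1 and 0.302 in those of replicate 2, a ratio of 5.86 between the DMSO libraries. In the spike-in lists with GSK126 it was 1.48 and 0.263, or 0.836 and 0.869 of the DMSO density. Scores grow with tag number and were therefore compared only within the standard lists of a replicate. As a check of the cell type, the starts of 7 of 9 epithelial marker genes lay in an H3K4me3 island of both DMSO libraries, compared to 0 of 9 haematopoietic and 0 of 5 endothelial marker genes that the annotation holds. Over all 20176 coding genes this share was 55.7%.

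H3K4me3 is deposited by the SET1 and MLL complexes and is best known as a mark of active and poised promoters. Subunits of these complexes carry CxxC domains that bind unmethylated CpG dinucleotides, and CpG islands are the typical sites of strong H3K4me3. Enhancers carry mostly H3K4me1, but lower levels of H3K4me3 are found at active enhancers, where factors such as AP-1 (dimers of FOS and JUN proteins) bind. H3K27me3, the product of EZH2 within Polycomb repressive complex 2 (PRC2), also lies over CpG islands, at genes that are kept silent, and sites with both marks are called bivalent.

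The distal islands fell into sequence types that the selection did not use, and examples of them are printed here as GRCh37 sequence. The next 3 sequences show CpG-rich islands, with every CG dinucleotide in capitals. The first 2 are the 200 bases before the annotated start of a transcript in the island. NFE2L2 encodes a transcription factor of the oxidative stress response, and LINC00511 a long non-coding RNA. The last is the CpG-richest stretch of 200 bases in an island without any annotated start, which also carried H3K27me3, at 20621 bp from the start of WNT11, a Wnt ligand.
NFE2L2 start, chr2:178128870-178129069, minus strand: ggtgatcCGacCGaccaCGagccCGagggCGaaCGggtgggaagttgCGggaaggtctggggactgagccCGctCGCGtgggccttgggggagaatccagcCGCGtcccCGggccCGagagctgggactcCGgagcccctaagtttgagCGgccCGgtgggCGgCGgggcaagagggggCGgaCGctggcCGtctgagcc
LINC00511 start, chr17:70588944-70589143, minus strand: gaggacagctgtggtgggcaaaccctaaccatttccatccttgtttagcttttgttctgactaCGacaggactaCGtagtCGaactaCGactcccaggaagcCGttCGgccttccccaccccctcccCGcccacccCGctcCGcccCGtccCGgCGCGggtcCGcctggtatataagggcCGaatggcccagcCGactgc
Island near WNT11, chr11:75947371-75947570, plus strand: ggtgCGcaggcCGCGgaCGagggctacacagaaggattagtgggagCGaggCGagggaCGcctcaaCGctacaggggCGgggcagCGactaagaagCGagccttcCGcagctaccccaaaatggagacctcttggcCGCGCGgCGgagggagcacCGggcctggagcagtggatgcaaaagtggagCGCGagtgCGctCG
These stretches held 22, 16 and 21 CG dinucleotides in 200 bases, at a GC content of 73%, 62.5% and 67%.

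The following 5 sequences show islands that had neither an annotated start nor a CpG-rich stretch, and that held the AP-1 letters TGANTCA in their central 300 bp. Each is 101 bases of the plus strand around the match, with the match in capitals. The first 4 are the highest-scoring such islands, near MRTFA (a coactivator of serum response factor), GNA12 (a G protein subunit), ITGA3 (an integrin of epithelial cells) and H2BC13 (a histone gene, 134 kb away). The island named after H2BC13 also held the letters of a tRNA promoter element, which the closing section describes. The annotation used here lists no nuclear tRNA genes. The last, near LSM3, is the highest-scoring of this kind that had no island with GSK126 in either replicate.
Island near MRTFA, chr22:41048055-41048155: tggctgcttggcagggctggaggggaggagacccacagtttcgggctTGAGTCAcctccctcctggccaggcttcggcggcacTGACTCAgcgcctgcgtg
Island near GNA12, chr7:2903036-2903136: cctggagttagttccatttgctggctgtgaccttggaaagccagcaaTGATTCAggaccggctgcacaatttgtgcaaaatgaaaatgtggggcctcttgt
Island near ITGA3, chr17:48105141-48105241: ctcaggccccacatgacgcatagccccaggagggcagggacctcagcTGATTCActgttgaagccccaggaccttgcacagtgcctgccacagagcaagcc
Island near H2BC13, chr6:27637937-27638037: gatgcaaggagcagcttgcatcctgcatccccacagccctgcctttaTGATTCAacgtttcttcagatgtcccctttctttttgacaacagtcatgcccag
Island near LSM3, chr3:14276740-14276840: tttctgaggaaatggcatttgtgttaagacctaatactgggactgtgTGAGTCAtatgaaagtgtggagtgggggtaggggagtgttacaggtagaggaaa
The stretch near MRTFA held the letters at 2 positions. The island there scored 2614 in DMSO replicate 1 and 737 in DMSO replicate 2, and the GSK126 libraries gave 2546 and 777. The island near LSM3 scored 109 and 32.2 with DMSO and had no score with GSK126.

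The label of these regions held only in part, because a gene start is the outermost start of a gene and many genes have further promoters. An annotated transcript start lay inside or within 1 kb of 2375 of the 4713 distal islands, or 50.4% (95% Wilson interval from 49.0% to 51.8%, counting error over islands only). The start belonged to a protein-coding gene at 1329 islands (28.2%), to a lncRNA gene at 879 (18.7%) and to another annotated RNA or pseudogene at 167 (3.54%). At 687 of the 1329 islands, or 14.6% of all, it was the start of the canonical transcript of the coding gene, the transcript that the annotation takes as representative, while at 642 (13.6%) only other transcripts started. No annotated start lay within 1 kb of 2338 islands (49.6%, interval from 48.2% to 51.0%). Thus the distal islands were a mixture of islands at further transcript starts of coding genes, at starts of lncRNA or other RNA genes, and without an annotated start.

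The position relative to genes differed between these classes. Of all distal islands, 33.4% touched an exon of a coding gene, 17.2% lay in introns only, 18.6% lay in the body of a lncRNA gene, and 30.8% lay outside all of these. Of the 2338 islands without an annotated start, 49.3% lay outside coding and lncRNA genes and 29.3% lay in introns only. The median distance from the nearest coding gene start was 40969 bp, and 126 islands (2.67%) were more than 500000 bp away. The share without an annotated start was 43.3% between 10000 and 20000 bp and 63.5% beyond 500000 bp. As a share of the shorter reproducible islands of a chromosome, distal islands ranged from 18.9% on chromosome 19 to 38.7% on chromosome 13, chromosome Y aside. Chromosome Y held 4 distal islands and no island near a gene start.

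Scores differed between the classes by a large factor. The median score in DMSO replicate 1 was 358 for all distal islands (quartiles 150 and 1096), compared to 2013 for islands near gene starts. Among the distal islands it was 1881 at canonical coding starts, 617 at lncRNA starts, 516 at other coding starts, 317 at other RNA starts and 201 without an annotated start. The islands at canonical coding starts were thus close in score to those near gene starts, and the islands without a start were lowest. The median length was 3000 bp for distal islands and 4000 bp for islands near gene starts.

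**Figure D1:**
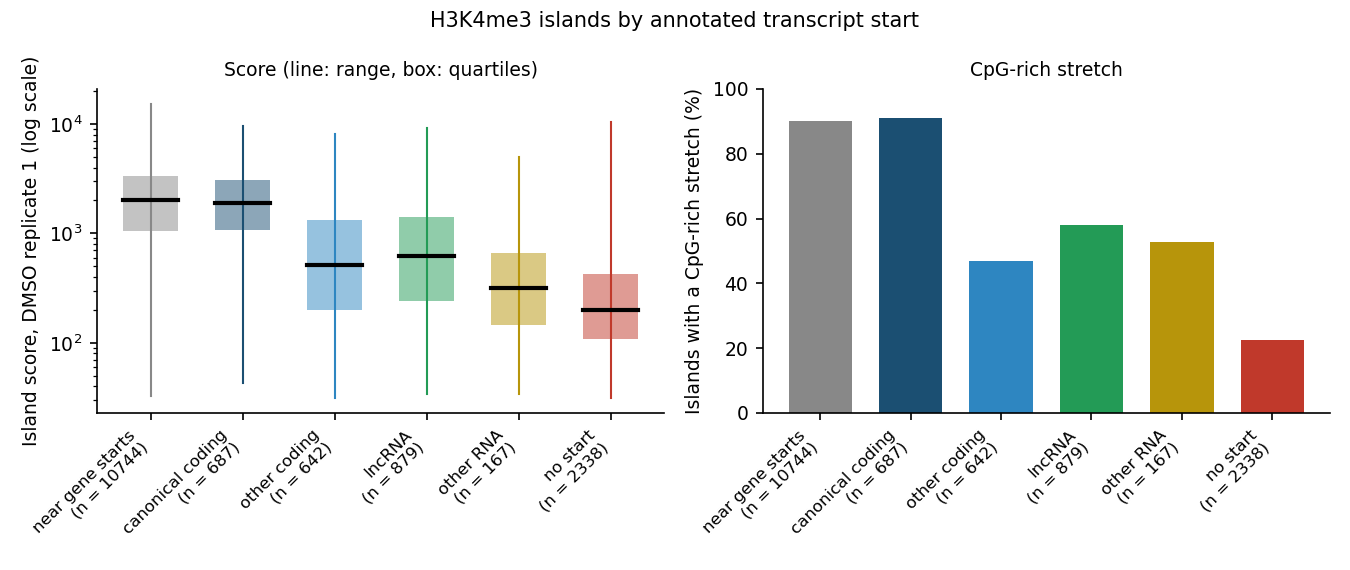
Score in DMSO replicate 1 (left, log axis: lines give the range, boxes the quartiles and black bars the median) and percent of islands with a CpG-rich stretch (right) for islands near gene starts and for the distal islands by the class of annotated transcript start. Medians fall from 1881 at canonical coding starts to 201 without a start, and the percent with a CpG-rich stretch falls from 91.0 to 22.5.

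Base composition also differed between the classes. The GC content was alike, with a median of 51.4% in distal islands and 51.7% near gene starts, but the ratio of observed to expected CpG had a median of 0.377 in distal islands compared to 0.547 near gene starts. It was 0.568 at canonical coding starts and 0.294 without an annotated start. A CpG-rich stretch, defined as 500 bp with a GC content of at least 55% and a CpG ratio of at least 0.65, was present in 2049 distal islands (43.5%) and in 90.1% of islands near gene starts. It was present in 91.0% of islands at canonical coding starts, 57.9% at lncRNA starts, 46.9% at other coding starts and 22.5% (526 of 2338) without a start. A longer island offers more positions for such a stretch, and the islands without a start were shorter, with a median of 2600 bp. The highest-scoring region without either a start or a stretch is described below with the other leading islands.

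Motif letters were counted in the central 300 bp on both strands, next to the windows 10 kb to the left of the same islands and to 35116 promoters of 300 bp from RefSeq (assembly GRCh38.p14). The AP-1 letters TGANTCA were present in 12.3% of all distal islands, 5.24% of islands near gene starts and 7.71% of promoters. In the distal islands without a CpG-rich stretch the share was 17.6% (468 of 2664), compared to 7.62% in the windows 10 kb away, a difference of 9.95 percentage points (Newcombe 95% interval from 8.19 to 11.7). In distal islands with a stretch the share was 5.56%. By start class, the letters were present in 16.3% of islands without a start, 9.44% at lncRNA starts and 7.75% at coding starts, and in 19.1% (346 of 1812) of islands with neither a start nor a stretch.

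The order of the other motifs depended on the comparison. The TEAD letters GGAATG, known from factors that act with YAP1, were present in 21.7% of distal islands without a CpG-rich stretch, 17% of the windows 10 kb away, 13.1% of islands near gene starts and 14% of promoters. The ETS letters CCGGAA contain a CpG, and were present in 6.34% of distal islands without a stretch and 13.6% of those with one, compared to 14.4% near gene starts and 17.2% of promoters. Against the windows 10 kb away, where they were present in 2.63%, they were more frequent in distal islands without a stretch by 3.72 points (interval from 2.62 to 4.85). Over all distal islands the difference from these windows was 6.81 points for the ETS letters (interval from 5.86 to 7.78) and 4.52 points for the AP-1 letters (interval from 3.31 to 5.74). The forkhead letters TGTTTAC were present in 3.38% of distal islands without a stretch, compared to 3.83% of the windows 10 kb away, a difference of -0.45 points (interval from -1.46 to 0.56), and in 3.42% of promoters. The E-box letters CANNTG were found in 81.6% of these islands and 81.0% of the windows 10 kb away, with 68.7% of promoters. Near gene starts they were found in 65.8%, a difference of 15.8 points (interval from 14.1 to 17.5), compared to 12.3 points for the AP-1 letters (interval from 10.9 to 13.9). The TEAD and ETS letters share GGAA, so that their matches can overlap, and a match shows only that the letters are present.

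**Figure D2:**
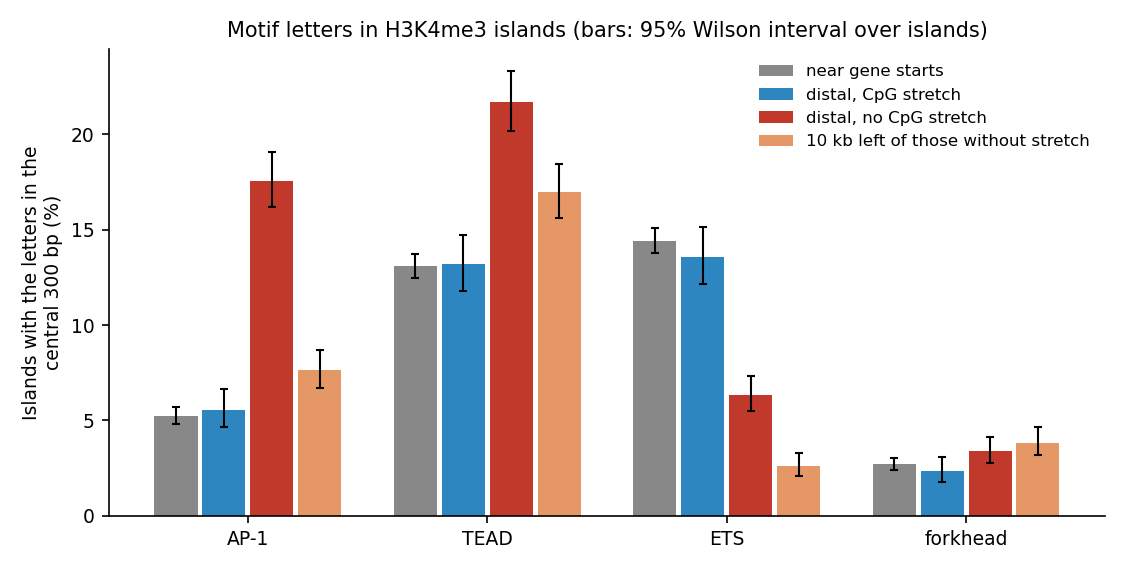
Percent of islands whose central 300 bp held the letters of each motif, for islands near gene starts, distal islands with and without a CpG-rich stretch, and windows 10 kb to the left of the latter, with 95% Wilson intervals over islands. AP-1 letters are present in 17.6% of distal islands without a stretch and in 5.24% to 7.62% of the other 3 groups, while ETS letters are lowest away from CpG-rich stretches.

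Of the 8 highest-scoring distal islands, 7 had a coding or lncRNA start. The NFE2L2 island at chr2:178125001-178132000 scored 9563 in DMSO replicate 1 and 1892 in DMSO replicate 2, and the GSK126 libraries gave 9759 and 1911. The HK1 island at chr10:71075401-71082000, at the canonical start of the hexokinase gene, scored 8331 and 2197 with DMSO, and 7892 and 1788 with GSK126. The VGLL4 island at chr3:11758401-11763800, at a non-canonical start of a gene for a TEAD cofactor, scored 8096 and 2155 with DMSO, and 8473 and 1711 with GSK126. The islands of LINC00511 (chr17:70582801-70590000, 466 kb from SOX9) and of IQCJ-SCHIP1 (chr3:159479201-159485400) had scores of 9006 and 7937 in DMSO replicate 1 and of 8965 and 7971 in GSK126 replicate 1. In replicate 2 these islands had scores of 1879 and 2332 with DMSO and of 1717 and 2087 with GSK126. The other islands among the 8 lay at lncRNA starts near DYNC1H1 and C8orf33, apart from the one that scored highest. The island near DYNC1H1 scored 9254 and 4094 with DMSO and 8941 and 4075 with GSK126, and the one near C8orf33 scored 7909 and 1624 with DMSO and 7486 and 1505 with GSK126. Of the 8, the NFE2L2 island was higher with GSK126 in both replicates, and 4 were lower in both (HK1, LINC00511 and those near DYNC1H1 and C8orf33).

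The highest score of all distal islands belonged to a region without an annotated start, chr6:58776001-58779400. It scored 10468 and 1637 with DMSO, and 9882 and 1918 with GSK126. This island lay 0.767 kb from the run of 3.1 Mb of unassigned bases at the centromere of chromosome 6, and the nearest coding gene start, that of PRIM2, was 1596 kb away. Between 88.2% and 100% of its length was covered by H3K27me3 islands in every one of the 8 H3K27me3 lists, with DMSO and with GSK126. It therefore appeared with both antibodies, both treatments and both normalizations, and islands were called without an input library. Within 100 kb of such a run of at least 1 Mb lay 29 of the 4713 distal islands. How the alignment of repeated sequence contributed to their scores was not tested. The next highest without an annotated start were chr22:41805601-41812200, 30.6 kb from TOB2, which scored 6291 and 1696 with DMSO and 6742 and 1651 with GSK126, and the island near WNT11, which scored 5234 and 1522 with DMSO and 6043 and 1489 with GSK126.

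Gene lists for a lung adenocarcinoma line and an EZH2 inhibitor were used to place the islands. Every island was assigned to the coding gene with the nearest start, and 3288 of 20176 coding genes (16.3%) had at least 1. The 23 genes of the ERK pathway list, which holds receptors, ligands and feedback inhibitors of growth factor signalling, had 26 distal islands at 11 genes (47.8%), and the starts of 20 genes (87%) lay in an H3K4me3 island of both DMSO libraries, beside 55.7% of all coding genes. The highest-scoring of the 26 (3505 in DMSO replicate 1), the only 1 assigned to ETV4, lay at the canonical start of DHX8, another coding gene. The receptor gene EGFR had 6 of the 26. The highest of these, at chr7:54999401-55002600, lay 84.1 kb from the EGFR start, at the start of another annotated RNA or pseudogene. It scored 1130 and 268 with DMSO and 1029 and 222 with GSK126. The epithelial list (18 genes) had 14 distal islands at 7 genes. Of these, an island without an annotated start lay 18 kb from KRT19, a simple epithelial keratin, at chr17:39702601-39707200, and scored 808 and 149 with DMSO and 635 and 230 with GSK126.

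The lung lineage list (18 genes) had 11 distal islands at 5 genes, and the starts of 7 of these genes (38.9%) lay in an island of both DMSO libraries, beside 55.7% of all coding genes. The island 76.8 kb from the surfactant gene SFTPD, at chr10:81663601-81665600, scored 966 and 272 with DMSO and 1399 and 373 with GSK126, and was higher with GSK126 in both replicates. H3K27me3 islands covered at least 90% of it in 7 of 8 lists and none of it in the spike-in list of GSK126 replicate 2. The list of PRC2 and PRC1 subunits (17 genes) had 9 distal islands at 7 genes. Islands at the canonical starts of EED, the PRC2 subunit that binds H3K27me3, and of PHF19, a Polycomb-like subunit, scored 4629 and 4374 in DMSO replicate 1. With GSK126, the EED island was higher in both replicates (5213 against 4629 and 881 against 793) and the PHF19 island was lower in both (3593 against 4374 and 1107 against 1562). The mesenchymal list (12 genes) had 1 distal island, 284 kb from ZEB1. With the share over all coding genes at 16.3%, the share of genes with a distal island was higher in 4 lists and, at 8.33%, lower in the mesenchymal list. The number of islands at a gene also depends on the width of the gap to its neighbours.

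The question for the treatment was whether distal H3K4me3 islands were found again when EZH2 was inhibited. In the standard lists, 4502 of 4713 distal islands (95.5%) were overlapped by an H3K4me3 island with GSK126 in replicate 1 and 3814 (80.9%) in replicate 2, a mean of 88.2 ± 10.3% (SD, n = 2). The share over all 16474 reproducible islands was 98.4% and 92.6%. For islands near gene starts it was 99.5% and 97.0%, and the difference between distal islands and these was -3.95 percentage points in replicate 1 (Newcombe 95% interval from -4.59 to -3.37) and -16.1 in replicate 2 (interval from -17.3 to -15.0). With the spike-in lists, the distal shares were 93.3% and 77.6%, beside 97.5% and 91.3% over all reproducible islands. No p-value is given for a comparison of treatments, since an exact sign-flip test over 2 replicates cannot give a p-value below 0.5.

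The share found again followed the score. Of the 1178 distal islands with a DMSO score under 150, 82.3% were found with GSK126 in replicate 1 and 44.2% in replicate 2, while all 1179 with a score of at least 1096 were found in both. Islands near gene starts within the same limits of score were found at 88.7% and 52.5% in the lowest range, and all 7973 in the highest range were found. The difference in the lowest range was -6.47 percentage points in replicate 1 (interval from -9.86 to -2.73) and -8.23 in replicate 2 (interval from -13.4 to -2.96). Between 150 and 358, the distal shares were 99.8% and 81.4%, and those near gene starts were 99.7% and 87.8%. In replicate 1 the gap to islands near gene starts thus lay in the lowest range, and in replicate 2, which had the lower tag density, it was smaller within each range of score than over all islands. By class, islands at canonical coding starts were found at 99.9% and 98.4%, and those without a start at 92.9% and 70.5%.

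**Figure D3:**
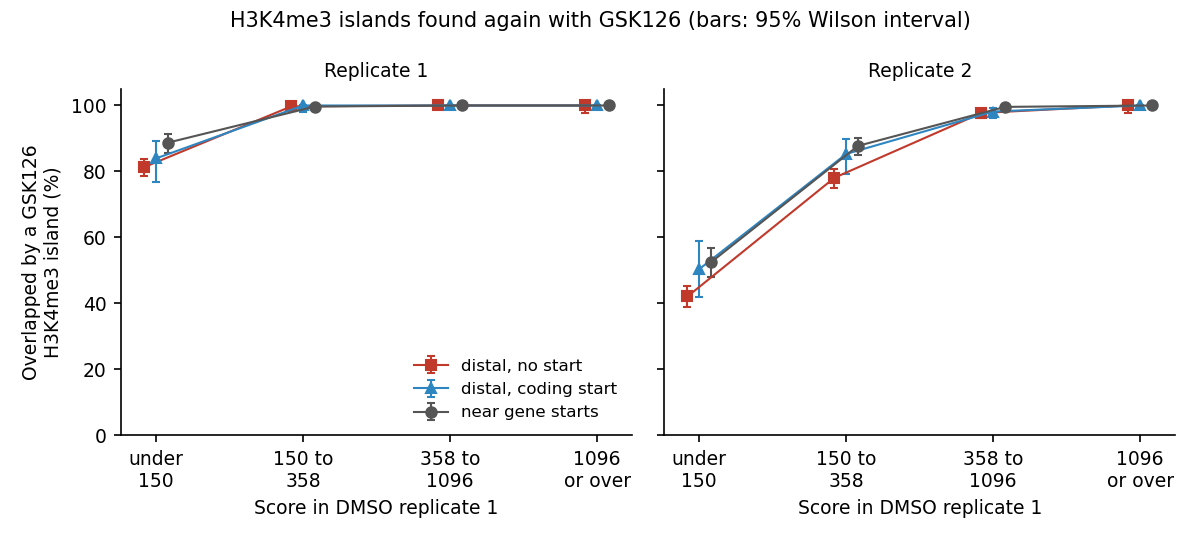
Percent of islands overlapped by an H3K4me3 island with GSK126 (standard lists), by score in DMSO replicate 1, for distal islands with a coding start, distal islands without a start and islands near gene starts, in each replicate with 95% Wilson intervals. All groups approach 100% at higher scores, and in replicate 2 all fall to between 42.1% and 52.5% at scores under 150.

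Because the islands were chosen for presence with DMSO, the same rule was also applied to the GSK126 standard lists. This gave 4587 distal islands, of which 98.8% and 86.2% were overlapped by a DMSO island in replicates 1 and 2. Therefore the loss was not restricted to one direction, although the reverse shares were higher than 95.5% and 80.9% in each replicate. In the direction from DMSO to GSK126, 183 distal islands (3.88%) had no GSK126 island in either replicate, compared to 1.38% of all reproducible islands. Their scores were low, with a median of 52.8 and a highest value of 159, and 140 of the 183 had no annotated start. With the spike-in lists, 262 distal islands (5.56%) had no GSK126 island in either replicate, compared to 2.10% of all reproducible islands. In the reverse direction, 45 of the 4587 islands (0.981%) had no DMSO island in either replicate, compared to 0.363% of all reproducible GSK126 islands, with a median score of 51.7 and a highest value of 106.

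The highest-scoring islands without a GSK126 island were weak compared with those described above. The island at chr6:151379201-151382600, in an intron and 179 kb from the start of AKAP12, a gene for a protein kinase A scaffold, scored 159 and 39.8 with DMSO. It was followed by islands at a non-canonical start of SS18L1 (chr20:60729601-60735600, scores 133 and 36.8), at a lncRNA start 17.2 kb from COPG1 (chr3:128947401-128951200, scores 132 and 29.7) and in a lncRNA gene 55.2 kb from DDR1 (chr6:30785001-30789000, scores 115 and 29.2). None of these 4 was overlapped by H3K27me3 in any list. The highest-scoring islands found only with GSK126 lay without an annotated start near TRMT12 (chr8:125437401-125439000), FASTKD3 (chr5:8516401-8518200), EI24 (chr11:125358601-125360000) and DGKG (chr3:186131001-186133000). They scored 106, 106, 85.8 and 85.4 in GSK126 replicate 1, and 69.9, 51.5, 27.8 and 37.1 in replicate 2. The region near DGKG was covered by H3K27me3 along its whole length in all 4 standard lists, the region near TRMT12 over 25% of its length in DMSO replicate 1 only, and the regions near FASTKD3 and EI24 in none of them. Of all 45 islands found only with GSK126, 17 (37.8%, Wilson interval from 25.1% to 52.4%) were overlapped by H3K27me3 in each DMSO standard list, counted separately and not all the same islands. This compared to 15.8% and 13.1% of the 183 islands without a GSK126 island. Among islands chosen with DMSO, the shares were 14.2% and 13.4% of all distal and 12.7% and 11.9% of all reproducible islands. The share over all islands chosen with GSK126 was not computed. In the DMSO spike-in lists the shares were 48.9% and 44.4% of the 45 and 17.5% and 16.4% of the 183. With GSK126, H3K27me3 still overlapped 33.3% and 31.1% of the 45 in the standard lists and 20% in each spike-in list. For the 183, these shares were 12.6% and 9.84% in the standard lists and 8.74% in each spike-in list.

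For the islands found with both treatments, the scores of the standard lists were compared within each replicate. The islands were chosen by presence with DMSO, and the ranges of score below are those of DMSO replicate 1. Such a choice can by itself lower the ratio at weak islands. No score change was computed for islands chosen with GSK126. In a population of cells, fewer cells with the mark and less of the mark per cell cannot be told apart. The median log2 ratio of the GSK126 to the DMSO score was -0.12 in replicate 1 (4502 islands) and -0.10 in replicate 2 (3814 islands) for distal islands, compared to 0.04 and -0.09 for all reproducible islands and 0.08 and -0.07 near gene starts. The score was lower with GSK126 at 61.5% and 59.5% of the distal islands, beside 43.3% and 62.1% of all reproducible islands. The share with a lower score was thus above that of all reproducible islands in replicate 1 and below it in replicate 2. More than 2-fold lower were 341 (7.57%) and 199 (5.22%) of the scored distal islands, beside 2.97% and 2.36% of all reproducible islands, and more than 2-fold higher were 33 and 102, or 0.733% and 2.67%, beside 0.815% and 1.24%. Of 3786 distal islands scored in both replicates, 25 were more than 2-fold lower in both and 3 were more than 2-fold higher in both. These counts were not computed over all reproducible islands, so they cannot be called particular to distal islands.

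In replicate 1, the change differed with sequence type. The median log2 ratio was -0.42 in distal islands without a CpG-rich stretch and 0.04 in those with one, and it was 0.09 at canonical coding starts and -0.34 without a start. In replicate 2 the corresponding values were -0.14, -0.08, -0.04 and -0.14, which differ by less than the 0.15 between both replicates near gene starts. Among islands without a start and with a score between 150 and 358, the median was -0.62 in replicate 1 without a stretch and -0.10 with one, whereas it was -0.15 and -0.17 in replicate 2. In replicate 2, islands without a start gave -0.23 without a stretch and -0.14 with one in the next higher range (358 to 1096), and -0.04 and 0.03 below 150. Islands near gene starts with a score between 150 and 358 gave -0.40 without a stretch and -0.05 with one in replicate 1, and -0.14 and -0.07 in replicate 2. The lower scores away from CpG-rich sequence were thus seen at like DMSO replicate 1 score and also near gene starts in replicate 1. In replicate 2 the differences within these ranges were smaller and not all in the same direction. What set the replicates apart, including their tag density, was not tested.

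**Figure D4:**
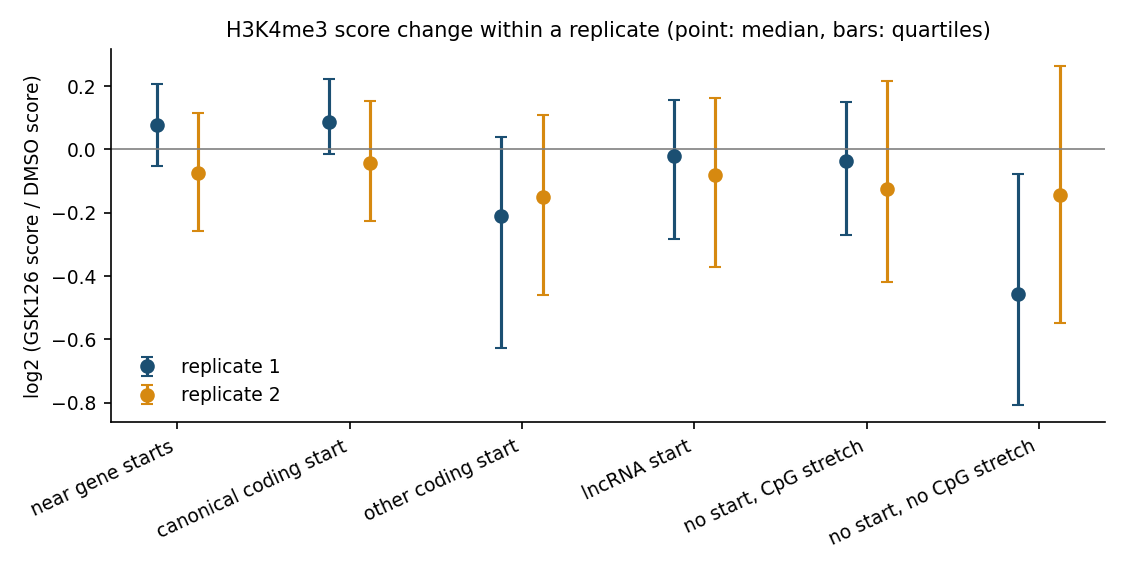
Median log2 ratio of the GSK126 to the DMSO H3K4me3 score (bars give quartiles over islands) in each replicate, for islands near gene starts and for classes of distal islands. Distal islands with neither a start nor a CpG-rich stretch have a median of -0.46 in replicate 1 and -0.14 in replicate 2, and the other groups lie between -0.21 and 0.09.

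Islands with the AP-1 letters were compared with those without among the 1812 islands that had neither a start nor a CpG-rich stretch. The 346 with the letters had a median score of 163, close to 174 for the 1466 without. They were found with GSK126 at 91.0% and 57.5% in replicates 1 and 2, compared to 91.5% and 65.8%, a difference of -0.50 points (interval from -4.22 to 2.50) and -8.31 points (interval from -14.1 to -2.65). The difference was thus larger than counting error in replicate 2 only. H3K27me3 with DMSO was present at 6.94% and 6.36% of the islands with the letters and at 12.8% and 11.3% of those without, a difference of -5.89 (interval from -8.76 to -2.32) and -4.96 points (interval from -7.70 to -1.53), which was in the same direction in both replicates.

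H3K27me3 was not used to choose the islands. With DMSO, H3K27me3 islands of the standard lists overlapped 668 distal islands (14.2%) in replicate 1 and 630 (13.4%) in replicate 2, beside 12.7% and 11.9% of all reproducible islands. Near gene starts the shares were 12.0% and 11.1%, and distal islands were higher by 2.20 (interval from 1.05 to 3.39) and 2.23 percentage points (interval from 1.1 to 3.38). Both DMSO lists had an H3K27me3 island at 562 distal islands (11.9%, beside 10.6% of all reproducible islands), and 268 lay inside such islands along their whole length in both. Both marks were measured in populations of cells, so overlap does not show that they lay on the same allele.

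Among all distal islands, H3K27me3 with DMSO overlapped 18.6% and 18.3% of those with a CpG-rich stretch and 10.8% and 9.61% of those without one. Near gene starts, 90.7% of the 1080 islands with H3K27me3 in both DMSO lists held a stretch, beside 90.1% of all islands there. Among islands without an annotated start, H3K27me3 overlapped 27.8% and 26.8% of the 526 with a CpG-rich stretch, but 11.7% and 10.4% of the 1812 without one. The difference was 16.1 (interval from 12.1 to 20.3) and 16.4 percentage points (interval from 12.5 to 20.6). Islands at canonical coding starts had H3K27me3 at 10.6% and 10.3%, although 91.0% of them held a stretch. Among the named islands with both marks in DMSO, H3K27me3 covered 33.3% and 13.9% of the length of the island near WNT11. It covered 32.3% and 58.1% of the island at the canonical start of CDC37 (chr19:10510601-10516800), a co-chaperone of HSP90.

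With GSK126, the share of distal islands with H3K27me3 fell in both normalizations. In the standard lists it was 11.1% and 9.68%, beside 10.1% and 8.74% of all reproducible islands, a change of -3.12 and -3.69 percentage points or -3.41 ± 0.405 (SD, n = 2). In the spike-in lists it went from 14.9% and 15.2% with DMSO, beside 13.5% and 13.6%, to 6.75% and 6.64% with GSK126, beside 6.40% and 6.14%, a change of -8.32 ± 0.30 points (SD, n = 2). Both changes were larger than the spread between replicates. By the correction factors of the paper, the spike-in scaling kept a much smaller part of the GSK126 tags for H3K27me3 than for H3K4me3. With fewer tags, fewer islands can be called, and how much of the fall in the spike-in lists came with the tag number was not tested. Of the distal islands with H3K27me3 in a DMSO spike-in list, 45% and 43.8% retained it with GSK126, and near gene starts 48.0% and 46.3% did. At islands without a start, the spike-in share fell from 28.7% and 30.6% to 12.9% and 12.9% with a CpG-rich stretch, and from 11.9% and 11.8% to 5.13% and 5.74% without one. In every list, the share with a stretch was more than 2 times that without.

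**Figure D5:**
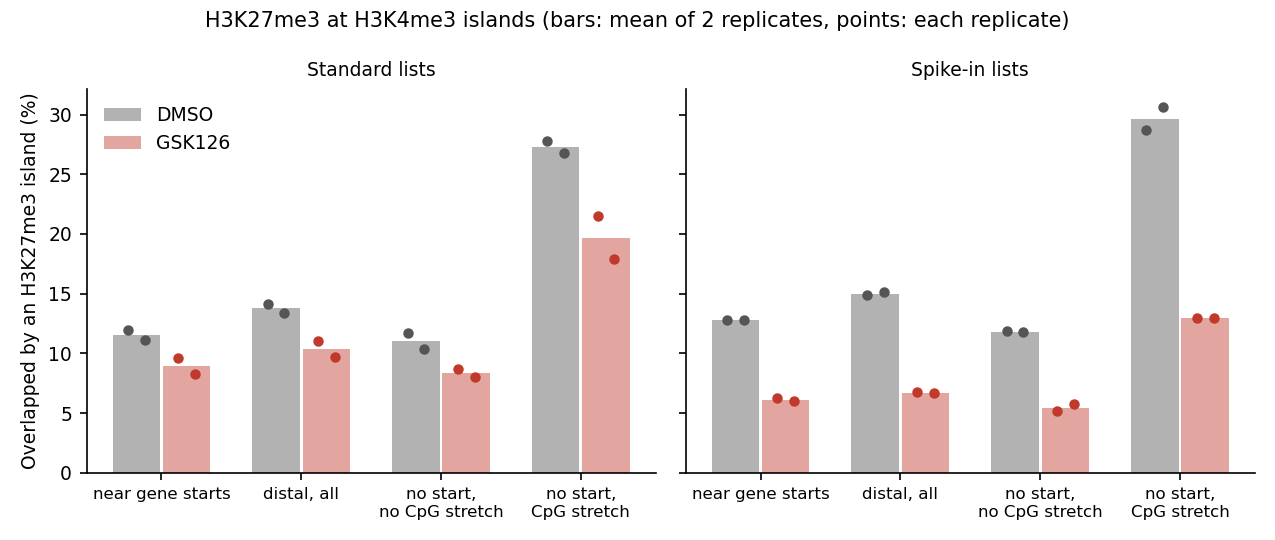
Percent of islands overlapped by an H3K27me3 island with DMSO and GSK126 in the standard lists (left) and the spike-in lists (right), for islands near gene starts, all distal islands and distal islands without an annotated start by CpG-rich stretch. Bars are means of both replicates and points are replicates. Islands with a CpG-rich stretch and no start are highest, at 28.7% and 30.6% with DMSO in the spike-in lists and 12.9% in each with GSK126.

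H3K4me3 with GSK126 was then compared between islands with and without H3K27me3. Of the 562 islands with H3K27me3 in both DMSO lists, 94.3% and 84.3% were overlapped by an H3K4me3 island with GSK126, compared to 95.8% and 80.4% of the 3977 islands with H3K27me3 in neither. The difference was -1.47 points in replicate 1 (interval from -3.78 to 0.295) and 3.9 in replicate 2 (interval from 0.451 to 6.95), so that its direction differed between replicates. The median log2 ratio of the H3K4me3 score was -0.08 and -0.11 with both marks and -0.12 and -0.10 without H3K27me3. In 205 distal islands (4.35%), H3K27me3 was present in both DMSO standard lists and in neither GSK126 spike-in list, while 263 (5.58%) had it in all 8 lists. The 205 set lists of different normalization against each other, and the tags of the GSK126 spike-in lists had been scaled down. Neither count was computed over all reproducible islands.

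Islands at the edges of the rule differed little from those beyond them. Just inside the distance limit, 124 islands between 10001 and 10995 bp from a gene start had a median score of 667, and just outside it 154 islands between 9003 and 9999 bp had a median of 536. The island nearest the limit lay 10001 bp from G6PC2 (score 892), and the nearest outside it 9999 bp from MALL (score 544). At the length limit, 34 islands of 7600 to 7800 bp had a median score of 1971, and 34 of 8000 to 8400 bp, not included here, had a median of 2224. A further 5814 islands of replicate 1 met the limits of length and distance but had no overlap in replicate 2, whose tag density was lower, and 177 reproducible distal islands were 8 kb or longer.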

How the data were processed

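The authors aligned 50-nt tags to hg19 (GRCh37) with BWA, removed duplicates and tags that did not map uniquely, scaled the tags of each library and called islands with SICER for each library, without an input, at an E-value of 1, in windows of 200 bp that were joined over gaps of 200 bp (H3K4me3) or 600 bp (H3K27me3). The deposited unit is a score for each island, and the authors pooled no replicates. The 14 lists hold no tag counts, so no interval for tags at an island can be given, and all intervals are over islands and cover counting error only. File coordinates were shifted to count from 1.

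From the lists, overlaps (at least 1 bp), summed scores, distances and sequence content were computed with Python 3.11.15, pandas 2.3.3, SciPy 1.17.1 and pysam 0.24.0, the tag density was fitted from islands of 1 window, and plots were drawn with Matplotlib 3.10.9. The annotation was GENCODE on GRCh37. Replicates were numbered in accession order and paired because tags had been scaled within a replicate. The overlap, distance, interval and density steps were checked on simulated data.

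Regions are named when they were among the 8 highest-scoring, the 3 highest of a start class, the 4 highest without GSK126 islands, with H3K27me3 in both DMSO lists or found only with GSK126, up to 3 per gene list, and those nearest the limits. The printed sequences were chosen by class and score, and none was taken from chromosome 8 or from an annotated UTR. One of the regions selected in this way is not reported here. The members, lists and tests were chosen with earlier results of these data known. Alternatives are described in the closing section.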

Additional observations from a re-analysis of the deposited data

How the results depend on the processing

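Over 72 recomputed values, 54 moved by less than the spread between replicates (or, for transcript starts, the interval over islands), and 18 moved further. Leaving out 1 of 2 replicates always moves a mean by less than their SD, and leaving out the replicate block does not move it. These alternatives are among the 54 and could not have moved further, so they say nothing about stability. The changes in score and in H3K27me3 kept their sign under every alternative, whereas a share cannot change sign. For the shares found again, the SD over 2 replicates was 10.3 (standard), 11.0 (spike-in) and 8.91 points (mirrored), so that only a large move could exceed it. Requiring at least 50% of the island to be covered lowered the mean share found with GSK126 to 67.2% (standard) and 63.7% (spike-in) and the mirrored share to 79.4%. The SD over 2 replicates was then 35.6, 39.2 and 26.7 points. In the standard lists, GSK126 islands covered on average 79.0% of a distal island in replicate 1 and 40.8% in replicate 2. The 50% rule also gave 11.3% with H3K27me3 with DMSO and changes of -2.68 (standard) and -6.51 points (spike-in). Counting the start of every transcript of coding genes left 2848 islands, with a start at 33.2%, H3K27me3 at 14.6% with DMSO, a spike-in change of -8.67 points and a score change of -0.13. A score at least 2 times the lowest gave 52.2% with a start, 13.0% with H3K27me3 and a spike-in change of -7.91 points. A start was present at 48.6% beyond 20 kb, at 46.4% when it had to lie inside the island and at 53.4% within 2 kb. The DMSO standard list against the GSK126 spike-in list gave -7.08 points, and leaving out islands within 2 kb of another, an alternative chosen after seeing the data, gave a score change of -0.0905. Without replicate 1 or 2, the standard share found with GSK126 was between 80.9% and 95.5%. Without the replicate block, the changes in H3K27me3 were the same, with an SD of 1.13 (standard) and 0.237 points (spike-in). No score change without the replicate block was computed, because the replicates differed 5.86-fold in tag density.

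The tag density of replicate 2 limits which weak islands can be found there. The lists hold called islands only, so the level of a mark below the calling threshold was not measured.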

Other observations

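The distal islands without an annotated start were also searched for the letters of the B box, the internal promoter element of tRNA genes (GGTTCGA, then any 2 bases and CC, both strands, whole island), a search that was chosen after the data were seen. The annotation used here lists mitochondrial but no nuclear tRNA genes, and the coding genes with the most distal islands included ZNF184, SCAND3 and TRIM27 on chromosome 6, with 10, 9 and 9 islands. The letters were present in 64 of 2338 islands without a start (2.74%, 95% Wilson interval from 2.15% to 3.48%), compared to 1.92% of windows of the same length 10 kb to the left and 3.28% of islands near gene starts, so that their share did not stand apart. On chromosome 6 between 26 Mb and 30 Mb lay 24 of the 64 (37.5%), compared to 40 of all 2338 islands without a start (1.71%) and 10 of the 352 islands near gene starts that held the letters (2.84%). The highest-scoring of these, chr6:27634401-27641600, is the island also printed above for its AP-1 letters, 134 kb from H2BC13. It scored 1943 in DMSO replicate 1 and 167 in DMSO replicate 2, and the GSK126 libraries gave 1869 and 261. Its match is shown in capitals.
Island near H2BC13, chr6:27636374-27636464, plus strand: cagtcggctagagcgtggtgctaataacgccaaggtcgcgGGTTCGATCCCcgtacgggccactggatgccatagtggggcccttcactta
All 64 islands with the letters were found with GSK126 in both replicates, while of all islands without a start 92.9% and 70.5% were found. Their median score was 558, compared to 201 for all islands without a start, and islands of such scores were mostly found again. H3K27me3 with DMSO overlapped 9.38% and 7.81% of them.

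The gene with the most distal islands was RP11-685N3.1 on chromosome 2, with 13 within chr2:89852201-92309800, of which 12 had no annotated start, and their highest score was 437. WNT7B and TNS3 had 9 each.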
